A study of Mus musculus with 21 samples.

Results

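The change from day 1 to day 2 after notexin injury was examined in the tibialis anterior muscle of aged mice, by taking the samples labelled with injury day 2 against those labelled with injury day 1. These were 7 of the 21 samples of the series and held 30815 of its 87822 cells. Each sample came from 1 female C57Bl/6J mouse aged 20 months, and every mouse of both groups had been injected with notexin, so the label that separates the groups is the day after injury. The group at 1 day post-injury (1 dpi) had 4 mice, replicates A to D, with 12477 cells, and the group at 2 dpi had 3 mice, replicates A to C, with 18338 cells. Both tibialis anterior muscles of a mouse were injected, and the study treated each sample separately, so p-values measure the spread between these mice. Uninjured mice of the same age, sex and strain (4 mice) are quoted as a background level where a result calls for it. The muscle was digested with enzymes, filtered and freed of erythrocytes, and the shares below are those of the cells that passed these steps.

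Notexin is a phospholipase from snake venom that lyses myofibers and spares much of the surrounding tissue, including the muscle stem cells (MuSCs) under the basal lamina. In the first days after such an injury neutrophils enter the muscle, followed by blood monocytes that turn into macrophages, which clear debris and later change to a repair state. MuSCs leave quiescence over the same days, and fibro-adipogenic progenitors (FAPs), endothelial cells, tenocytes, smooth muscle and Schwann cells form the resident tissue around them.

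Each cell carried the cell type label that the study gave it after integrating all its samples with Harmony, a method that aligns libraries before clustering. The same cells also carried a label from each of 2 other integrations, BBKNN and Scanorama. Cells whose Harmony class was myeloid or lymphoid were taken as immune (10 types) and the others as non-immune (13 types), and shares were taken within each of these compartments in each mouse. The counts of individual genes were not analysed, so the types could not be checked against their marker genes and were checked only against the labels of the other methods. A share gives no number of cells per muscle, so fewer cells of one type and more cells of the others cannot be told apart.

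Depth varied widely between mice. A mouse had between 1197 and 10556 cells and between 8812211 and 53598557 unique molecular identifiers (UMIs, each standing for 1 captured transcript). At the low end, 1 dpi replicate B had 1197 cells and only 47.7% of its reads in cells, at a sequencing saturation of 83.0%. At the other end, 2 dpi replicate A had 10556 cells, 15035 reads per cell and a saturation of 28.1%, the lowest of the 7. At most 0.412% of the barcodes of the smaller library were shared by any pair of the 7 libraries. With the smallest compartments of 449 immune and 652 non-immune cells, the widest exact (Clopper-Pearson) 95% interval of a single share spanned 8.83 percentage points in immune and 7.79 points in non-immune cells, and these intervals cover counting error only.

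Among immune cells, neutrophils and inflammatory monocytes fell and patrolling monocytes rose from 1 dpi to 2 dpi, while the other 7 immune types did not pass the test. Shares were arcsine square root transformed, fitted with limma over all 23 types, and the p-values were adjusted over the 23 types by the Benjamini-Hochberg method. These 3 types were the only ones past the threshold of 0.05, so 13.0% of the types tested were called. The mice of the groups did not overlap for 8 of the 23 types (34.8%), of which 5 were immune. With 4 against 3 mice an exact permutation test cannot go below p = 0.0286, and adjusted over 23 types it called 0 types, against 4 immune types and 1 non-immune type at an unadjusted limma p under 0.05.

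Neutrophils, the first granulocytes to reach injured muscle, made up 22.7%, 16.0%, 18.3% and 15.9% of immune cells in 1 dpi replicates A to D and 3.87%, 4.41% and 1.93% in 2 dpi replicates A to C. The mean fell from 18.2% ± 3.19 (SD, n = 4) to 3.40% ± 1.30 (SD, n = 3), a 5.36-fold drop (limma adjusted p = 0.00127, exact p = 0.0286). Every mouse at 2 dpi lay below every mouse at 1 dpi, and the uninjured mean was 9.21% ± 6.07 (SD, n = 4). Uninjured mice had few immune cells, a mean of 2.71% of their labelled cells, so their shares of immune cells are coarse. Neutrophils counted 484, 72, 589 and 413 cells at 1 dpi and 298, 151 and 36 at 2 dpi. When cells under 1000 genes or 2000 UMIs, or with over 15% mitochondrial UMIs, were dropped, the direction was kept and the adjusted limma p rose to 0.0557.

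Inflammatory monocytes, the population that blood supplies early after damage, held 27.4%, 32.1%, 27.0% and 33.9% of immune cells at 1 dpi and 19.4%, 18.3% and 12.9% at 2 dpi. Their mean fell from 30.1% ± 3.44 (SD, n = 4) to 16.9% ± 3.44 (SD, n = 3), or 13.2 percentage points (limma adjusted p = 0.0115, exact p = 0.0286). The groups did not overlap. In uninjured mice, with few immune cells, the mean was 19.5% ± 6.98 (SD, n = 4), and this label was the largest immune type by mean share there too. Taken over all cells of a mouse instead of its immune cells, the fall from 1 dpi to 2 dpi no longer passed the test (limma adjusted p = 0.330). It also missed the threshold with 1 dpi replicate B and 2 dpi replicate A both left out (limma adjusted p = 0.0631).

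The name patrolling monocytes is usually given to the monocytes that crawl along vessel walls, and is used here only as the study's label. Patrolling monocytes, which the study describes as high in Fabp5 and negative for Cx3cr1 and Ly6c2, moved the other way. Their share was 14.4%, 17.8%, 19.2% and 12.6% at 1 dpi and 33.3%, 35.3% and 39.5% at 2 dpi, so the lowest mouse at 2 dpi stood above the highest at 1 dpi. The mean rose 2.25-fold, from 16.0% ± 3.01 (SD, n = 4) to 36.0% ± 3.19 (SD, n = 3), with a limma adjusted p of 0.00127 (exact p = 0.0286). In uninjured muscle, with few immune cells, the same label covered 0.660% ± 0.877 (SD, n = 4) of immune cells, with 0% in replicates A and D. By Scanorama the patrolling label also rose from 1 dpi to 2 dpi, from a mean of 0.498% to 4.08% of immune cells. Its level in uninjured mice was unlike that by Harmony, with a mean of 20.0% of immune cells. At 1 dpi inflammatory monocytes were the largest immune type by mean share, and at 2 dpi patrolling monocytes were.

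**Figure D1:**
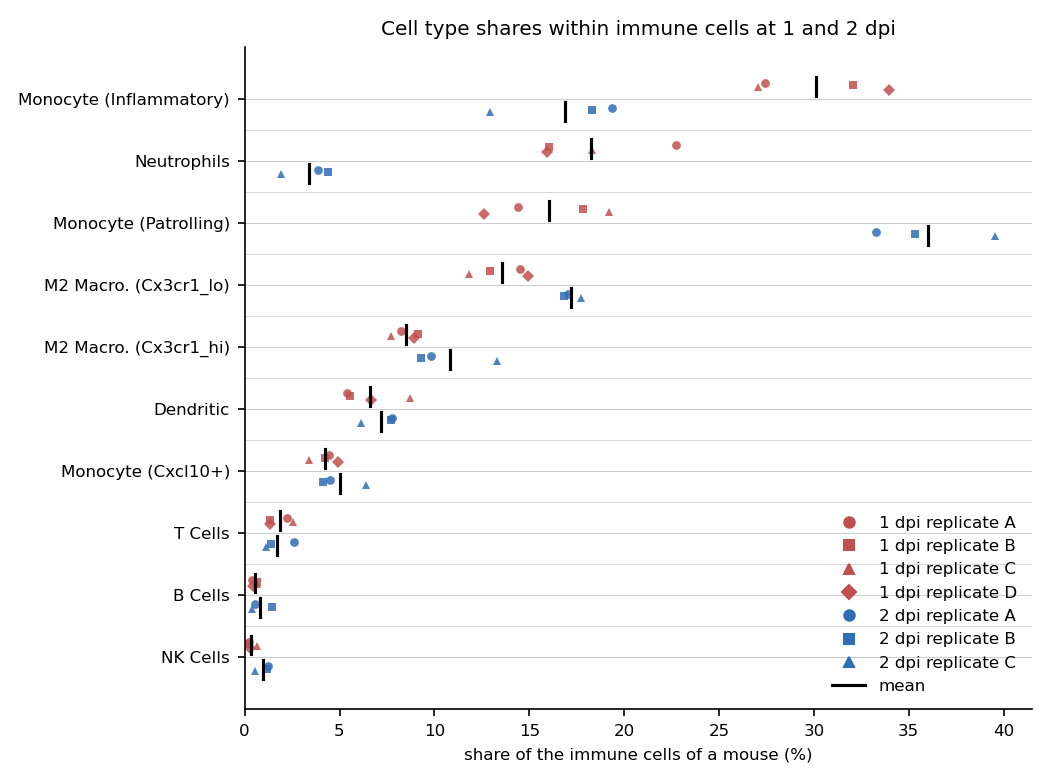
Share of each Harmony cell type among the immune cells of a mouse, in percent on the horizontal axis, with 1 point per mouse (red, 1 dpi, n = 4, and blue, 2 dpi, n = 3, with a marker shape per replicate) and a black bar at the group mean. Neutrophils and inflammatory monocytes lie lower and patrolling monocytes higher in all 3 mice at 2 dpi than in any of the 4 mice at 1 dpi.

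The macrophage labels shifted less. The Cx3cr1_lo M2 macrophages, named for a low level of the fractalkine receptor gene, held 14.5%, 12.9%, 11.8% and 14.9% of immune cells at 1 dpi and 17.0%, 16.8% and 17.7% at 2 dpi. The groups did not overlap, but the difference of 3.65 points missed the threshold (limma adjusted p = 0.0987, exact p = 0.0286). With untransformed shares in the same fit it passed (limma adjusted p = 0.0319). The Cx3cr1_hi M2 macrophages held 8.50% ± 0.641 (SD, n = 4) at 1 dpi and 10.8% ± 2.19 (SD, n = 3) at 2 dpi, also without overlap (limma adjusted p = 0.271, exact p = 0.0286). Both differences were smaller when neutrophils were taken out of the denominator. Over the remaining immune cells the Cx3cr1_lo share was 16.6% ± 2.01 (SD, n = 4) and 17.8% ± 0.249 (SD, n = 3), the Cx3cr1_hi share was 10.4% ± 0.635 and 11.2% ± 2.11, and the groups overlapped in both.

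Over immune cells other than neutrophils, inflammatory monocytes went from 36.8% ± 3.18 (SD, n = 4) to 17.5% ± 3.75 (SD, n = 3) and patrolling monocytes from 19.6% ± 3.62 to 37.3% ± 2.86 (limma adjusted p = 0.00412 for both). Summed over the 3 monocyte labels, the share of all immune cells was 50.4% ± 3.30 (SD, n = 4) at 1 dpi and 57.9% ± 0.878 (SD, n = 3) at 2 dpi, a difference that missed the threshold over the 6 classes compared (exact p = 0.0571, adjusted p = 0.171). The sum of both M2 macrophage labels was 22.0% ± 1.81 and 28.0% ± 2.66, without overlap (exact p = 0.0286, adjusted p = 0.171).

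Dendritic cells, which carry antigen to lymph nodes, held 6.59% ± 1.53 (SD, n = 4) and 7.20% ± 0.935 (SD, n = 3) of immune cells. Monocytes labelled Cxcl10+, after an interferon-induced chemokine, held 4.25% ± 0.649 and 5.01% ± 1.21. The 95% interval of the difference ran from -1.78 to 3.0 points for dendritic cells and from -0.956 to 2.48 points for Cxcl10+ monocytes. Together T cells, B cells and natural killer (NK) cells held 2.74% ± 0.803 (SD, n = 4) of immune cells at 1 dpi and 3.48% ± 1.26 (SD, n = 3) at 2 dpi (exact p = 0.343, adjusted p = 0.557). NK cells counted 5, 1, 21 and 8 cells at 1 dpi and 94, 40 and 10 at 2 dpi, and their share of 0.354% ± 0.202 against 0.975% ± 0.380 had overlapping mice (limma adjusted p = 0.199). T cells held 1.85% ± 0.624 and 1.71% ± 0.781 (limma adjusted p = 0.859), and B cells 0.540% ± 0.144 and 0.798% ± 0.580 (limma adjusted p = 0.817). The 3 lymphocyte types had under 10 cells in some mice and were added to those named by rule after their values were seen.

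The labels of the other 2 integrations divided the monocytes in another way. Both have a type called infiltrating monocytes, which is not among the Harmony labels of these cells. By BBKNN it covered 18.6%, 21.6%, 22.7% and 11.5% of immune cells in the mice at 1 dpi and 59.8%, 58.6% and 61.3% at 2 dpi. By Scanorama it covered 7.41%, 23.3%, 9.34% and 4.98% at 1 dpi and 67.1%, 59.2% and 68.5% at 2 dpi. All mice at 2 dpi were above all mice at 1 dpi by both methods. The limma adjusted p was 0.000331 by BBKNN and 0.000723 by Scanorama. BBKNN's inflammatory monocytes went from 49.0% ± 5.43 (SD, n = 4) to 13.7% ± 5.86 (SD, n = 3) and its neutrophils from 16.6% ± 3.08 to 1.99% ± 1.57. BBKNN called 5 of its 27 types in limma (18.5%) and Scanorama 3 of 23 (13.0%), with infiltrating monocytes, inflammatory monocytes and neutrophils called by both. BBKNN also called patrolling monocytes and a type named Endothelial (Stem). Cells of the latter numbered 0 in all 4 mice at 1 dpi and 13, 8 and 6 cells at 2 dpi, and 26 of these 27 cells carried the Harmony label of T cells.

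The names of the macrophage and patrolling types did not carry over. The Cx3cr1_lo macrophages were 13.5% of immune cells at 1 dpi by Harmony, 5.95% by BBKNN and 0.927% by Scanorama, and their difference from 1 to 2 dpi had the opposite sign under both of the others. Patrolling monocytes covered 36.0% of immune cells at 2 dpi by Harmony, 4.31% by BBKNN and 4.08% by Scanorama. By BBKNN they numbered 0, 0, 1 and 1 cells at 1 dpi and 164, 79 and 181 cells at 2 dpi, and by Scanorama the rise missed the threshold (limma adjusted p = 0.0698). Of the cells that Harmony called patrolling at 2 dpi, 96.3% were infiltrating monocytes by BBKNN.

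Cells of one Harmony type often had another BBKNN label at 2 dpi than at 1 dpi. Infiltrating monocytes by BBKNN made up 0.172%, 0%, 0.115% and 0% of Harmony's inflammatory monocytes at 1 dpi and 16.3%, 17.1% and 39.4% at 2 dpi. Within the Cx3cr1_lo macrophages they made up 18.8%, 13.8%, 27.8% and 3.36% at 1 dpi and 61.5%, 65.8% and 57.0% at 2 dpi. Within the Cx3cr1_hi macrophages the values were 8.0%, 9.76%, 9.64% and 0.433% at 1 dpi and 48.3%, 54.7% and 43.5% at 2 dpi. In each of these 3 types the mice of the groups did not overlap (exact p = 0.0286, adjusted p = 0.0444 over the 28 comparisons). Over all 28 combinations of 7 myeloid types, 2 methods and 2 monocyte labels, the mice did not overlap in 22 (78.6%), and 18 passed the adjusted exact test. These combinations were chosen after their values were seen, and many of them count the same cells.

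**Figure D2:**
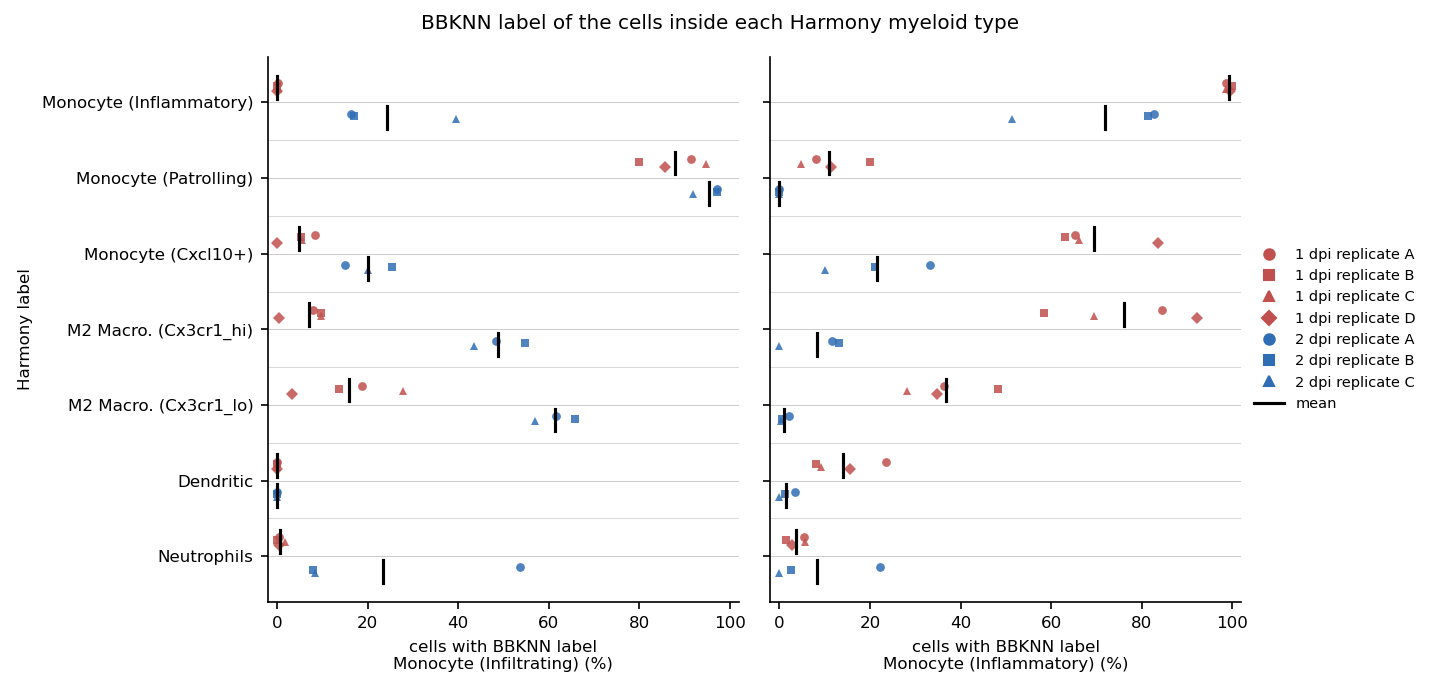
Percent of the cells of each Harmony myeloid type that BBKNN labels as infiltrating (left) or inflammatory (right) monocytes, with 1 point per mouse (red, 1 dpi, n = 4, and blue, 2 dpi, n = 3) and a black bar at the group mean. In the inflammatory monocytes, Cxcl10+ monocytes and both M2 macrophage types the infiltrating label is more frequent in every mouse at 2 dpi than in any mouse at 1 dpi.

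The neutrophil label was mixed at 2 dpi. Infiltrating monocytes by BBKNN were 0.413%, 0%, 1.70% and 0.484% of Harmony's neutrophils at 1 dpi and 53.7%, 7.95% and 8.33% at 2 dpi. The highest value belonged to 2 dpi replicate A, the library with the fewest reads per cell, where neutrophils were 0.593% of immune cells by BBKNN and 3.87% by Harmony. Without that mouse the fall of the neutrophil share by Harmony was -0.265 on the arcsine scale, against -0.257 with all 7 mice, and stayed past the threshold (limma adjusted p = 0.00486).

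Cells for which Harmony gave no label made up 4.53%, 3.17%, 6.58% and 6.15% of a mouse's cells at 1 dpi and 11.3%, 7.44% and 4.84% at 2 dpi, and the groups overlapped (exact p = 0.171). BBKNN labelled all of them. Of the unlabelled cells at 1 dpi, 66.1% were inflammatory and 23.6% infiltrating monocytes by BBKNN, and at 2 dpi 3.61% and 92.5%. Counting these cells in the immune denominator left the 3 called types called. Immune cells made up 76.5%, 38.7%, 76.1% and 72.0% of labelled cells at 1 dpi and 82.3%, 80.5% and 61.5% at 2 dpi, against a mean of 2.71% in uninjured mice. The groups overlapped (exact p = 0.600), and without 1 dpi replicate B, the lowest value, the difference of the means was -0.164 points in place of 8.88 points.

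None of the 13 non-immune types passed the test, and the mice of one group differed widely. Capillary endothelial cells, which line the smallest vessels, held 46.0%, 45.1%, 15.5% and 40.4% of non-immune cells at 1 dpi and 34.7%, 43.7% and 56.8% at 2 dpi. The 3 FAP labels together held 17.8%, 7.32%, 55.0% and 26.8% at 1 dpi and 36.4%, 22.4% and 4.97% at 2 dpi. The number of FAPs per endothelial cell ran from 0.137 to 2.98 among mice at 1 dpi and from 0.0740 to 0.870 at 2 dpi, and the groups overlapped. As shares of non-immune cells, FAPs and tenocytes were highest in 1 dpi replicate C, and myonuclei in 1 dpi replicate B. The names of FAPs and tenocytes also differed between methods. By Scanorama, pro-remodeling FAPs held 0.244% and tenocytes 28.7% of non-immune cells at 1 dpi, against 14.6% and 5.52% by Harmony.

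Myonuclei of type IIb fibers, the fast glycolytic fibers that dominate this muscle, held 14.3%, 22.0%, 0.891% and 6.36% of non-immune cells at 1 dpi and 2.47%, 3.61% and 6.93% at 2 dpi. Type IIx myonuclei held 4.34% ± 4.25 (SD, n = 4) and 2.28% ± 1.52 (SD, n = 3), with 0 of 1010 non-immune cells in 1 dpi replicate C. Taken as 3 cells, this count of 0 allows a share of up to 0.297%, and the exact 95% interval reaches 0.365%. The sum of both myonuclei types fell short of the test (exact p = 0.371), and its mean was 15.2% at 1 dpi and 6.62% at 2 dpi. BBKNN gave the name Myonuclei (Cell Prep) to 99.07% of the type IIb myonuclei at 1 dpi and 96.05% at 2 dpi. For type IIx these were 97.64% and 100%. The paper states that preparing single cells loses most nuclei of mature myofibers, so these shares need not follow the nuclei of the muscle. The widest uncertainty lay with capillary cells, whose difference had a 95% interval from -14.5 to 31.2 points, and with pro-remodeling FAPs, the matrix-building subset, from -19.7 to 13.0 points.

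**Figure D3:**
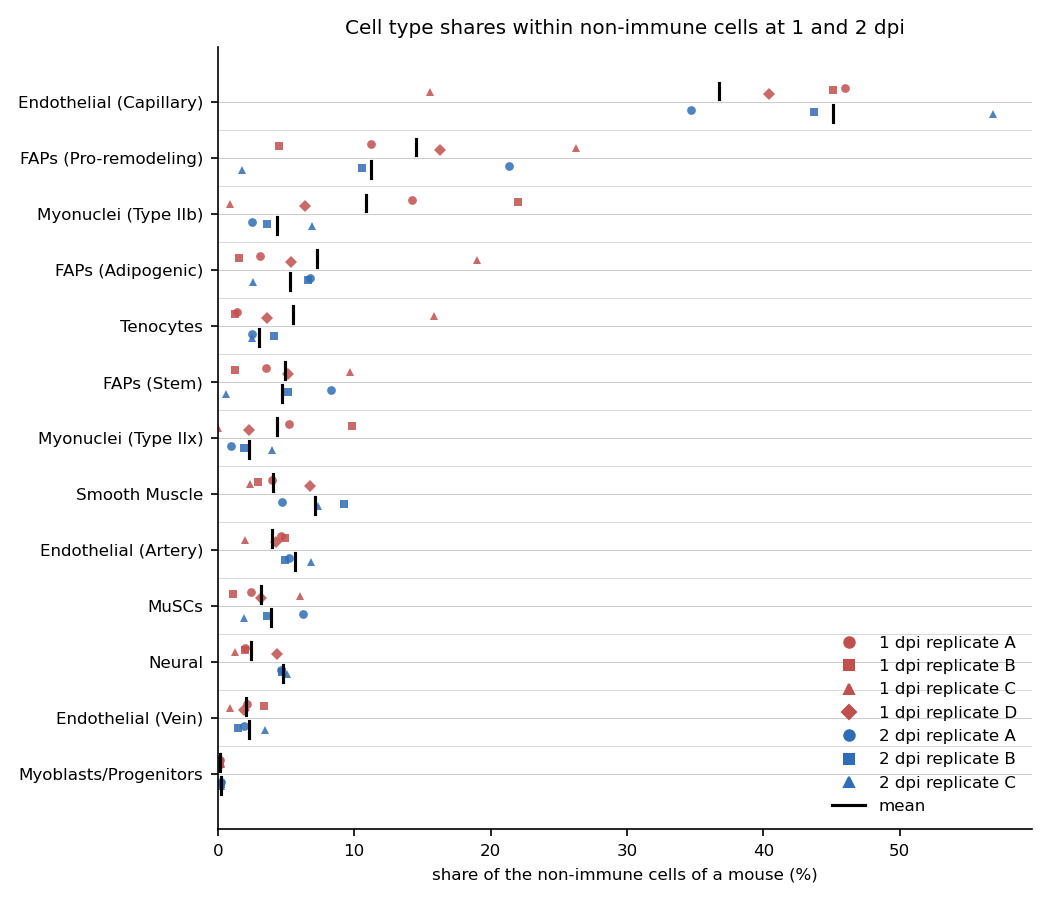
Share of each Harmony cell type among the non-immune cells of a mouse, in percent on the horizontal axis, with 1 point per mouse (red, 1 dpi, n = 4, and blue, 2 dpi, n = 3) and a black bar at the group mean. Capillary endothelial cells and the FAP types spread widely within a group, while neural cells lie between 4.64% and 5.05% at 2 dpi.

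Neural cells, the class that holds Schwann cells, were the closest to a call among non-immune types. Their share was 1.99%, 1.97%, 1.29% and 4.37% at 1 dpi and 4.64%, 4.70% and 5.05% at 2 dpi. The groups did not overlap, with means of 2.41% ± 1.35 (SD, n = 4) and 4.80% ± 0.222 (SD, n = 3), yet the limma adjusted p was 0.127 (exact p = 0.0571). Without 1 dpi replicate D, which lay near the mice at 2 dpi, the adjusted p was 0.0102. Smooth muscle held 4.02% ± 1.94 (SD, n = 4) and 7.11% ± 2.30 (SD, n = 3), with overlapping mice (limma adjusted p = 0.257). Arterial endothelial cells held 3.95% ± 1.34 and 5.68% ± 1.03, without overlap (limma adjusted p = 0.332). Adipogenic FAPs, the subset that can form fat, held 7.25% ± 8.0 (SD, n = 4) and 5.32% ± 2.38 (SD, n = 3), and the sign of this difference changed when replicate C of either group was left out. Of the scarcer types, tenocytes held 1.38%, 1.27%, 15.8% and 3.57% at 1 dpi and 2.47%, 4.10% and 2.48% at 2 dpi, stem FAPs 4.92% ± 3.57 and 4.70% ± 3.88, and venous endothelial cells 2.08% ± 1.02 and 2.27% ± 1.03. Myoblasts or progenitors numbered 5 cells at 1 dpi and 9 at 2 dpi, and their shares of 0.148% ± 0.0406 and 0.246% ± 0.00913 did not overlap (limma adjusted p = 0.672).

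MuSCs by Harmony, which like the other types with under 10 cells in some mouse were added after their values were seen, numbered 16, 8, 61 and 32 cells at 1 dpi and 104, 30 and 22 at 2 dpi, or 3.20% ± 2.08 (SD, n = 4) and 3.92% ± 2.21 (SD, n = 3) of non-immune cells (limma adjusted p = 0.840). The label went against that of BBKNN for many of these cells. BBKNN put 18.8%, 0%, 57.4% and 21.9% of them among immune cells at 1 dpi and 82.7%, 66.7% and 36.4% at 2 dpi, for the most part as infiltrating monocytes at 2 dpi (62.8% of the MuSCs of that group). Over the group, at most 1.52% of the cells of any other non-immune type were immune by BBKNN, apart from the 14 myoblasts or progenitors, of which 3 were. The MuSC label is therefore read below as a set of cells on which the methods differ, and its values are given with and without the cells that BBKNN calls immune.

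A finer myogenic state, which the study assigned from a trajectory of myogenic cells, was carried by 5, 4, 11 and 8 stem or progenitor cells at 1 dpi and by 8, 4 and 6 at 2 dpi. All 28 of these cells at 1 dpi carried the state of quiescent MuSCs. At 2 dpi 8 were quiescent, 7 activated, 2 committed myoblasts and 1 a fusing myocyte. The quiescent share was 100% in each mouse at 1 dpi and 37.5%, 50% and 50% at 2 dpi (exact p = 0.0286). Activated MuSCs numbered 0 in each mouse at 1 dpi and 4, 1 and 2 at 2 dpi (exact p = 0.0286). The exact p-values were not adjusted over the states compared. With so few cells a count of 0, taken as 3 cells, allows a share of up to 75.0% in 1 dpi replicate B and 27.3% in replicate C. BBKNN called none of the cells with a state immune, but its names differed. Of the 28 quiescent cells at 1 dpi it labelled 24 as a type named Myoblasts_2, 3 as committed progenitors and only 1 as a MuSC. Of the 8 quiescent cells at 2 dpi it labelled 7 Myoblasts_2 and 1 a committed progenitor, and the 7 activated cells were committed progenitors. With all MuSCs and progenitors as denominator the quiescent difference was -21.9 points (exact p = 0.0571).

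Within cell types, 14 measures were compared in the 21 types with at least 10 cells in at least 2 mice of each group. NK cells and myoblasts or progenitors were too few. The measures were the median UMIs and genes of a cell, the genes expected at a fixed number of UMIs, and the mean percent of a cell's UMIs from each of 11 gene classes. Each measure was fitted with limma on the log2 scale and p-values were adjusted over all 294 pairs of type and measure. The test called 8 pairs (2.72%), while 58 had an unadjusted limma p under 0.05 and the mice of the groups did not overlap in 66 (22.4%). The exact permutation test adjusted over the 294 pairs called 0, against 17 at an unadjusted exact p under 0.05. Types of one mouse share a library, so the pairs are not independent and limma's p-values, which pool the spread over types, may be too small.

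Transcription factor genes (the column named tf) gave 3 of the 8 calls. Their percent of a cell's UMIs was higher at 2 dpi in 18 of 21 types and lower in 3, the patrolling monocytes and both M2 macrophages, with a median log2 difference of 0.22. With each mouse centred on its mean over types, it was higher in 13 and lower in 8 types and no call was left. As centred values are relative to the mouse's other types, the values below are uncentred. Replicate A at 2 dpi, the library with the fewest reads per cell, had the highest percent of all mice in 12 of 21 types. The transcription factor percent rose past the threshold in tenocytes, MuSCs and adipogenic FAPs and fell past it in none. In adipogenic FAPs it was 2.88%, 3.22%, 3.77% and 3.41% at 1 dpi and 4.73%, 4.24% and 4.49% at 2 dpi, a log2 difference of 0.44 ± 0.11 (SE) with a limma adjusted p of 0.00944. In tenocytes, the fibroblasts of tendon, it was 3.93% and 3.53% in the 2 mice at 1 dpi with at least 10 cells (replicates C and D) and 5.24%, 5.48% and 5.70% at 2 dpi, a log2 difference of 0.55 ± 0.13 (SE) with a limma adjusted p of 0.00809. The groups did not overlap in either type. BBKNN labelled 15.5% of Harmony's adipogenic FAPs adipogenic and 75.8% pro-remodeling at 1 dpi, and 38.6% and 58.9% at 2 dpi. The part of this shift in the difference was not tested. The other FAP types pointed the same way without passing the test, at 3.32% ± 0.101 (SD, n = 3) and 4.17% ± 0.373 (SD, n = 2) in stem FAPs.

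In MuSCs the percent was 3.32%, 3.43% and 2.96% in 1 dpi replicates A, C and D and 5.69%, 4.38% and 3.57% at 2 dpi, a log2 difference of 0.46 ± 0.12 (SE) with a limma adjusted p of 0.00944. With the cells that BBKNN calls immune left out, the difference was 0.51 ± 0.11 (SE) and its adjusted p 0.00565. These remaining cells had 2.56%, 2.02% and 2.80% at 1 dpi and 4.18%, 3.15% and 3.15% at 2 dpi. By BBKNN the remaining cells were still mixed. Of all Harmony MuSCs at 1 dpi, BBKNN labelled 17.95% capillary endothelial cells, 11.97% pro-remodeling FAPs and 20.51% Myoblasts_2. At 2 dpi these labels covered 5.128%, 3.846% and 7.692%. The part of this shift in the transcription factor difference was not tested. Each of the 3 calls was lost without 2 dpi replicate B, and that of MuSCs also without 1 dpi replicate D or 2 dpi replicate A. The call in adipogenic FAPs was also lost without 1 dpi replicate A or D or 2 dpi replicate A. With cells of the other compartment by BBKNN left out, the exact p was 0.0571 in adipogenic FAPs and 0.1 in MuSCs and in tenocytes. The log2 differences stayed between 0.29 and 0.76 in MuSCs, between 0.36 and 0.58 in tenocytes and between 0.29 and 0.55 in adipogenic FAPs under the alternatives run on the log2 scale.

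**Figure D4:**
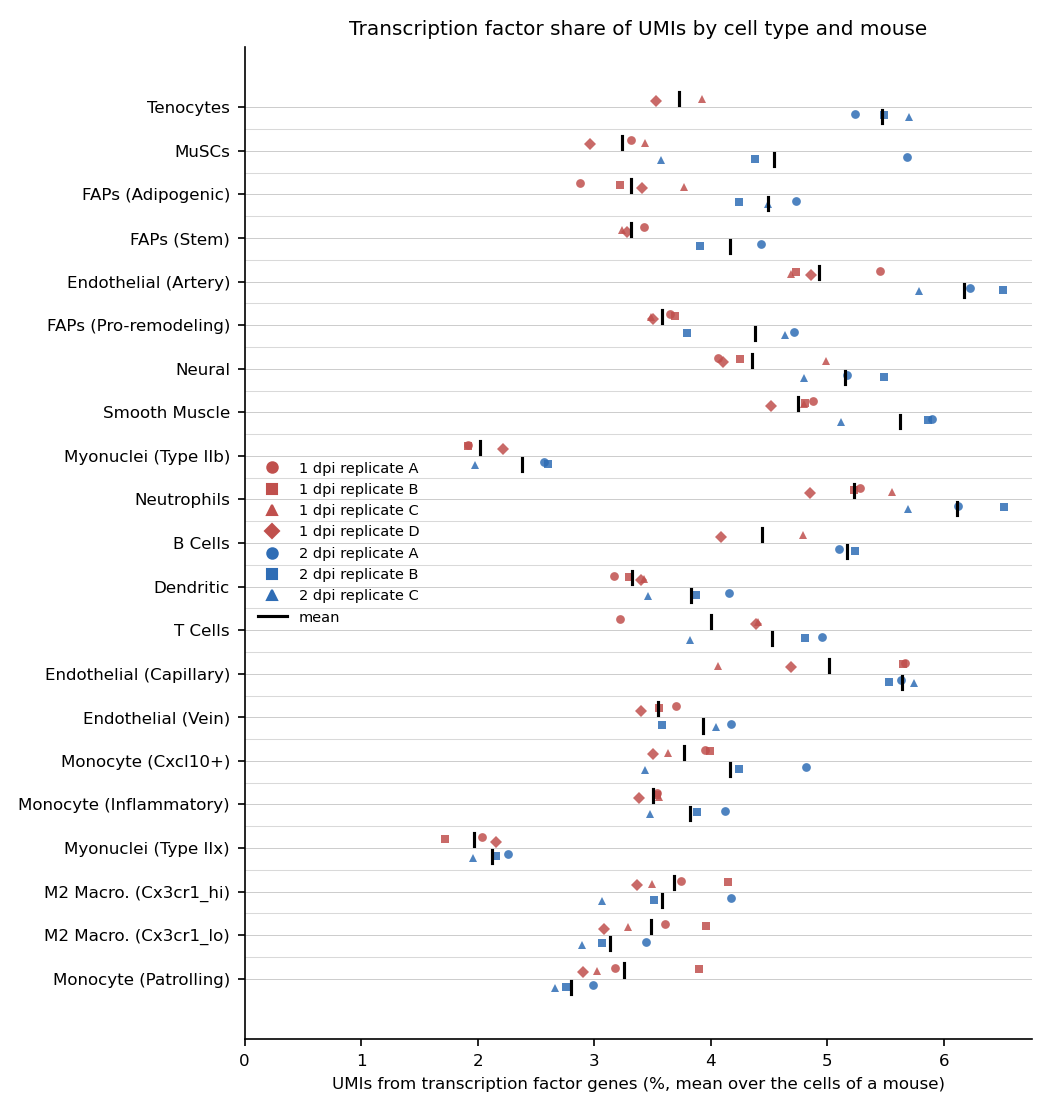
Percent of UMIs from transcription factor genes, as the mean over the cells of a type in a mouse, with 1 point per mouse that had at least 10 cells of the type (red, 1 dpi, and blue, 2 dpi) and a black bar at the group mean. Types are ordered from the largest log2 rise, in tenocytes, to the largest fall, in patrolling monocytes.

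The number of UMIs per cell was lower at 2 dpi in 19 of 21 types, by a median of -0.45 on the log2 scale. Replicate A at 2 dpi, with the lowest saturation, had the lowest UMIs of all mice in 14 of 21 types, and without it 12 of the 19 testable types were lower. With saturation as a covariate 13 of 21 types were lower, and with each mouse centred on its mean over types 9 were lower and 12 higher. For UMIs, only stem FAPs passed the test. Their median was 37372, 19970 and 21878 UMIs in 1 dpi replicates A, C and D and 9122 and 9329 UMIs in 2 dpi replicates A and B, a 2.75-fold drop (log2 difference -1.46 ± 0.42 SE, limma adjusted p = 0.0437), compared with 7865 UMIs in uninjured muscle. The exact p was 0.1, the smallest that 3 against 2 mice allow. The call was lost without 1 dpi replicate A, C or D, and with saturation as a covariate (log2 difference -1.01, limma adjusted p = 0.141). BBKNN labelled 44.5% of Harmony's stem FAPs pro-remodeling at 1 dpi and 19.15% at 2 dpi, and the part of this shift in the drop was not tested. Genes per cell were lower in 16 of 21 types, or in 9 with the mice centred, and were called in none (3 types had an unadjusted limma p under 0.05).

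Adipogenic FAPs, named here after their values were seen, had 10287, 10474, 13420 and 19242 UMIs at 1 dpi and 7863, 6094 and 5279 at 2 dpi, without overlap (exact p = 0.0286, limma adjusted p = 0.0938). Among the 5 most abundant types, inflammatory monocytes had a log2 difference of -0.77 ± 0.35 (SE), neutrophils -0.53 ± 0.35, capillary cells -0.35 ± 0.35, Cx3cr1_lo macrophages -0.24 ± 0.35 and patrolling monocytes -0.24 ± 0.35, and all 5 had overlapping mice. Patrolling monocytes at 2 dpi had medians of 6690, 12908 and 16997 UMIs against 3568, 6497 and 9886 in inflammatory monocytes of the same mice.

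At a fixed number of UMIs, the number of genes was higher at 2 dpi in 18 of 21 types, with a median log2 difference of 0.06, and no type was called (6 had an unadjusted limma p under 0.05). It was higher in 11 and lower in 10 types with each mouse centred, and higher in 13 and lower in 8 with saturation as a covariate, where 2 types were called, among them neutrophils (log2 difference 0.13, limma adjusted p = 0.0487). Inflammatory monocytes at 9886 UMIs had 2662, 2584, 2804 and 2771 genes at 1 dpi and 3142, 2932 and 2812 at 2 dpi, without overlap (log2 difference 0.13 ± 0.06 SE, limma adjusted p = 0.205). The patrolling monocytes, at 12908 UMIs, had 3239 ± 114 genes (SD, n = 4) at 1 dpi and 3320 ± 74.3 (SD, n = 3) at 2 dpi.

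**Figure D5:**
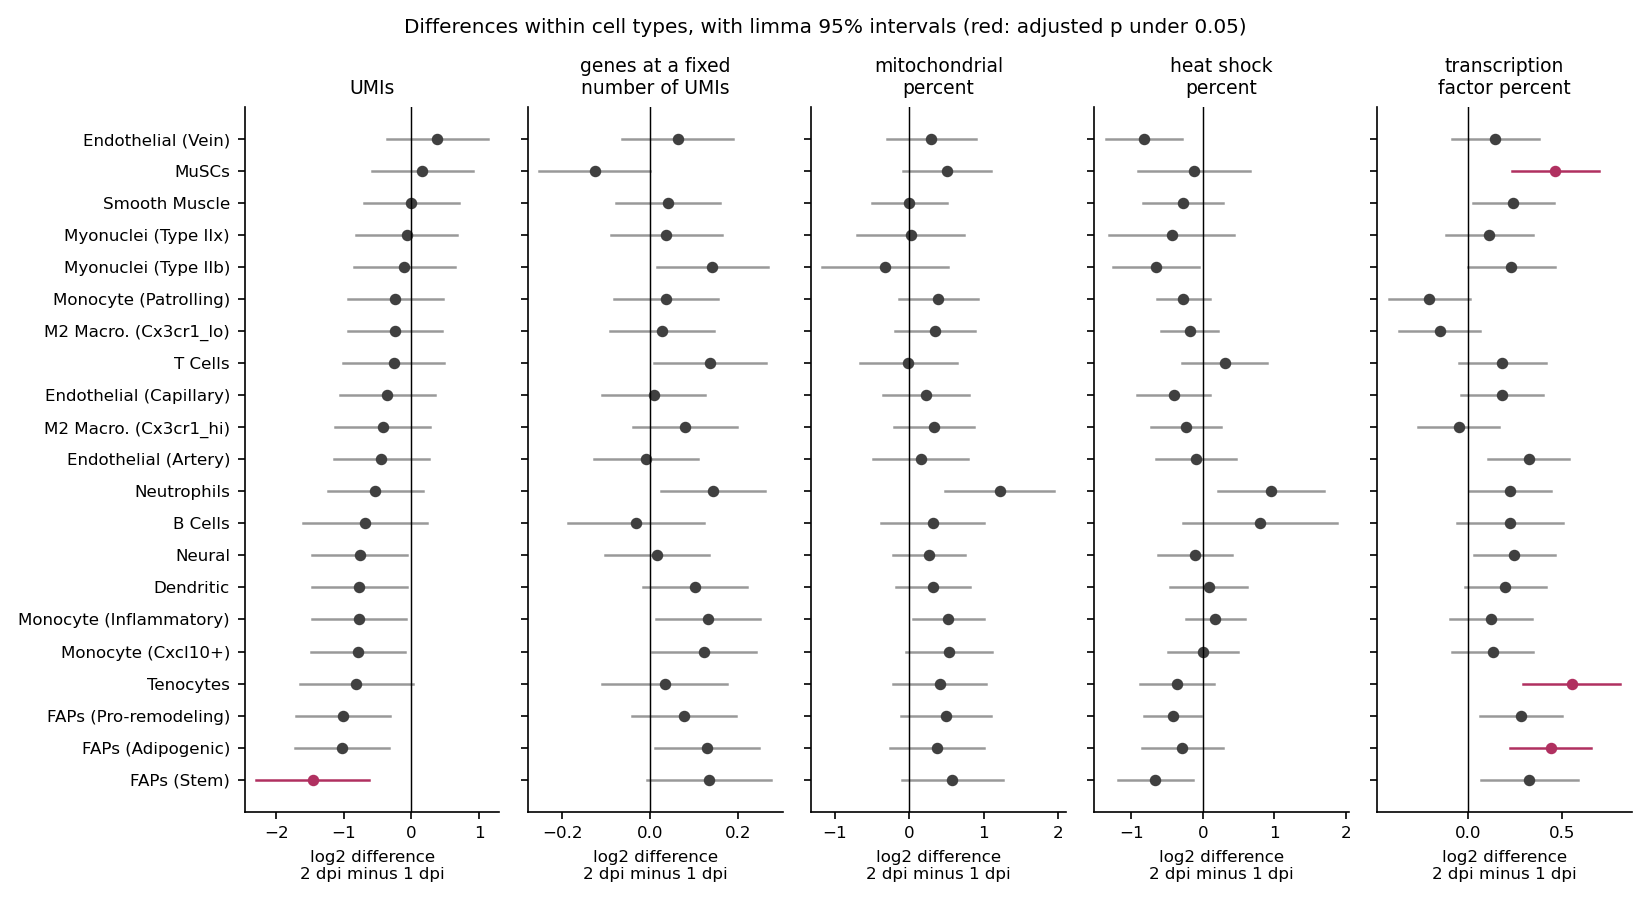
Log2 difference (2 dpi minus 1 dpi) within each of 21 Harmony cell types for UMIs, genes at a fixed number of UMIs and the mitochondrial, heat shock and transcription factor percent, with limma 95% intervals and red where the adjusted p was under 0.05. UMIs lie left of 0 in 19 types and the transcription factor percent lies right of 0 in 18.

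The mitochondrial percent, a common sign of stressed or damaged cells, was higher at 2 dpi in 19 of 21 types with a median log2 difference of 0.34, and was called in none (2 had an unadjusted limma p under 0.05). With the mice centred it was higher in 6 types and lower in 15. In inflammatory monocytes it was 3.89%, 4.19%, 3.26% and 4.38% at 1 dpi and 5.99%, 5.36% and 5.56% at 2 dpi, so the groups did not overlap (log2 difference 0.53 ± 0.23 SE, limma adjusted p = 0.205). In neutrophils it was 2.76%, 3.67%, 2.21% and 4.58% at 1 dpi and 13.8%, 4.98% and 5.89% at 2 dpi (log2 difference 1.21 ± 0.34 SE, limma adjusted p = 0.0859), where the highest value is again that of 2 dpi replicate A. The neutrophil difference passed the threshold with at least 25 cells per mouse, with the stricter filter on cells, or without 1 dpi replicate B or 2 dpi replicate B (limma adjusted p from 0.00403 to 0.0356). It did not pass with BBKNN labels or with the mice centred, where this measure was called in no type. In 2 dpi replicate A, BBKNN calls 53.7% of Harmony's neutrophils infiltrating and 22.1% inflammatory monocytes, and their part in the mitochondrial difference was not tested.

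The heat shock percent was lower in 16 of 21 types, with a median log2 difference of -0.24 and no call (5 had an unadjusted limma p under 0.05). The mice at 2 dpi lay far apart. Replicate C at 2 dpi was the lowest of all mice in 14 types and replicate A of the same group the highest in 10, and without replicate C 12 of 21 types were lower. Neutrophils had the largest difference in the other direction. Their heat shock percent was 0.272%, 0.285%, 0.335% and 0.283% at 1 dpi and 1.13%, 0.407% and 0.412% at 2 dpi (log2 difference 0.95 ± 0.33 SE, limma adjusted p = 0.187). Their ribosomal percent was 2.82%, 3.20%, 3.43% and 2.51% at 1 dpi and 5.70%, 3.87% and 4.40% at 2 dpi (log2 difference 0.63 ± 0.15 SE, limma adjusted p = 0.0875). Neither range overlapped between the groups, and in both the highest mouse was 2 dpi replicate A, in which BBKNN calls 53.7% of Harmony's neutrophils infiltrating and 22.1% inflammatory monocytes. With BBKNN's own labels the ribosomal difference in neutrophils was 0.78 on the log2 scale and passed the threshold (limma adjusted p = 0.00725). The heat shock percent was called in no type with those labels. Beyond this change of labels, the part of these cells in the differences was not tested.

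The ribosomal percent split the types, with 10 higher and 11 lower. It was higher at 2 dpi in patrolling monocytes, from 7.48%, 7.43%, 8.27% and 8.37% to 8.99%, 9.61% and 9.16%, and in Cx3cr1_lo macrophages, from 8.46% ± 0.705 (SD, n = 4) to 9.95% ± 0.603 (SD, n = 3), without overlap in either and without a call (limma adjusted p = 0.194 and 0.205). It fell past the threshold only in neural cells, from 12.1%, 10.8%, 9.51% and 9.31% at 1 dpi to 7.05%, 6.54% and 7.78% at 2 dpi. This was a log2 difference of -0.54 ± 0.11 (SE) with a limma adjusted p of 0.0437 (exact p = 0.0286), and the uninjured mean was 7.72% ± 0.208 (SD, n = 4). The call was lost on leaving out any 1 of the 7 mice, with adjusted p-values between 0.0577 and 0.165, while the log2 difference stayed between -0.61 and -0.47.

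The classes of noncoding RNA held small parts of the UMIs. Antisense RNA and bplncRNA, RNA transcribed from bidirectional promoters, rose past the threshold in MuSCs. Antisense RNA was 0.0538%, 0.0506% and 0.0643% in 1 dpi replicates A, C and D and 0.136%, 0.108% and 0.0538% at 2 dpi, with overlapping mice (log2 difference 0.65 ± 0.19 SE, limma adjusted p = 0.0437). The bplncRNA percent was 0.0110%, 0.010% and 0.00973% at 1 dpi and 0.0221%, 0.0241% and 0.0222% at 2 dpi (log2 difference 0.70 ± 0.07 SE, limma adjusted p = 0.00809). With the cells that BBKNN calls immune left out, both calls were lost (limma adjusted p = 0.210 and 0.519). The antisense call was also lost without 1 dpi replicate A, C or D or 2 dpi replicate A or B, with log2 differences from 0.39 to 0.73 in these fits (limma adjusted p from 0.185 to 0.374). The bplncRNA call was lost without 1 dpi replicate D (0.0709) or 2 dpi replicate B (0.0516). Small nuclear RNA fell in T cells by 0.46 on the log2 scale (limma adjusted p = 0.0437), from a mean of 0.00927% ± 0.00171 (SD, n = 3) to 0.00396% ± 0.000604 (SD, n = 3), and this call was lost on leaving out any 1 mouse. BBKNN put 9.50%, 18.8% and 33.3% of the T cells at 2 dpi outside the immune compartment, and without those cells the adjusted p was 0.0892. On the log2 scale with 0.01 percentage points added, the differences of such rare classes are understated. The percents of these classes also rest on few captured transcripts. Only 16 MuSCs were in 1 dpi replicate A and 21 T cells in 2 dpi replicate C. The median over mice was 1675 UMIs for a MuSC and 3473 for a T cell.

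In the 5 most abundant types the remaining classes were not called. Protein-coding genes held between 87.8% and 94.3% of UMIs in the group means of these types, and long intergenic noncoding RNA between 1.05% and 2.62%. The long intergenic class was higher in neutrophils at 2 dpi, at 2.19% ± 0.153 (SD, n = 4) against 2.62% ± 0.232 (SD, n = 3), without overlap and without a call (limma adjusted p = 0.365). MicroRNA genes, small nucleolar and small nuclear RNA each held under 0.01% of UMIs in these types, with a log2 difference of at most 0.17 in either direction.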

How the data were processed

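The deposited per-cell tables of 7 mice, aged 20 months, were used, with columns mapped by their labels. Per the submitters' notes, reads were aligned to mm10 with Cell Ranger 3.1.0 and handled in Seurat 3.1.5. The authors removed ambient RNA with SoupX, so the deposited UMIs are expected counts that need not be whole, and the deposited genes per cell are counts. They marked doublets with DoubletFinder, and no further doublet call was made here. The deposited percent columns give the percent of a cell's UMIs in a gene class. Library figures such as the fraction of reads in cells and the ambient fraction were deposited by the authors as calculated per library. Labels came from clusters that the authors named after 3 integrations.

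Shares per mouse were arcsine square root transformed and fitted with limma 3.58.1 in R 4.3.3. Within types, limma was run on log2 medians (UMIs, genes, and genes read at a fixed number of UMIs from a line per mouse) or on log2 of the mean percent plus 0.01 percentage points, in mice with at least 10 cells of the type. P-values were adjusted by the Benjamini-Hochberg method at 0.05. Exact permutation tests over mice were two-sided and went through all regroupings of the mice. The exact intervals of single shares came from scipy 1.17.1. edgeR 4.0.16 served as an alternative for shares, and the scripts were tested on simulated data. In shares, types past the threshold or with at least 10 cells in all 7 mice were named. Within types, the 3 largest rises and falls among calls and the 5 most abundant types were named. The comparison, its lists and its tests were chosen with earlier results of these data known. Same-lettered mice did not deviate together (correlations between -0.762 and -0.214), so letters were not taken as pairs. Added after the data were seen were the alternatives that count unlabelled immune cells, drop neutrophils from the denominator, drop cells of the other compartment by BBKNN, or leave out 2 mice together, as was the comparison of labels between methods.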

Additional observations from a re-analysis of the deposited data

Results flagged for a closer look

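In 5 of the 87 groups of 4 mice tested, 1 mouse at 1 dpi lay far from the other mice of its group by Dixon's criterion at the 95% level, and chance flags about 1 group in 20. The immune share of labelled cells was 38.7% in 1 dpi replicate B, where the other mice had 76.5%, 76.1% and 72.0%. The same mouse had the highest bplncRNA percent in Cx3cr1_lo macrophages (percent.bplncRNA 0.0111%, against 0.00964%, 0.00963% and 0.00976%). It also had the highest small nuclear RNA percent in Cx3cr1_lo macrophages, at 0.00423% against at most 0.00206%, and in inflammatory monocytes, at 0.00304% against at most 0.00221%. In inflammatory monocytes the transcription factor percent was 3.39% in 1 dpi replicate D, against 3.54%, 3.54% and 3.55% in the others.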

How the results depend on the processing

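The 3 immune calls held in each fit with 1 mouse left out (3 calls each), fell to 2 without 1 dpi replicate B and 2 dpi replicate A together (inflammatory monocytes lost) and fell to 0 in the adjusted exact permutation test. Non-immune types called numbered 0, but 1 with BBKNN labels, and between 0 and 1 with 1 mouse left out (neural cells, without 1 dpi replicate D). Signs turned, none past the threshold, on the arcsine scale for dendritic cells (-0.0103) and Cxcl10+ monocytes (-0.000984) with neutrophils out of the denominator. With Scanorama labels the sign turned for Cx3cr1_hi (-0.0944) and Cx3cr1_lo macrophages (-0.0186), adipogenic FAPs (0.0926) and pro-remodeling FAPs (0.0222), and with BBKNN labels for Cx3cr1_lo macrophages (-0.0307) and adipogenic FAPs (0.050). It also turned for dendritic cells in edgeR with TMM (-0.0733, log2), for capillary cells over all cells (-0.0157), and for adipogenic FAPs without 1 dpi replicates B and C (0.0232). With 1 mouse left out the arcsine difference ran from -0.0589 to 0.0499 in adipogenic FAPs and from -0.144 to 0.0288 in pro-remodeling FAPs. The cause of these changes was not tested.

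The difference in the immune share ran from -0.164 to 15.5 points with 1 mouse left out. The unlabelled share differed by 1.53 points with the stricter filter (exact p = 0.0286), by -0.0203 points with Scanorama and by 0 with BBKNN, which labels all cells. The quiescent share differed by -21.9 points with all stem and progenitor cells as denominator. With 1 mouse left out it differed by -56.2 to -50 points, and there the exact test cannot pass the threshold. With the stricter filter it differed by -100 points (exact p = 0.1), over few cells. Only 8, 4 and 6 cells of the mice at 2 dpi carried a state before that filter. Such a p at full separation means that not every mouse kept one.

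Calls for UMIs numbered 1, and 0 with mean and median exchanged, at least 5 or at least 25 cells, BBKNN labels, centred mice, the exact test or cells of the other compartment left out. They numbered 2 with saturation as a covariate, 3 with all 21 samples in one fit and 0 to 2 with 1 mouse left out. Calls for genes numbered 2 with saturation, 2 with all 21 samples and 0 to 1 with 1 mouse left out. Calls for genes at a fixed number of UMIs numbered 1 with BBKNN labels, 1 with the stricter filter and 2 with saturation. The 7 calls on percent columns became 1 with mean and median exchanged, 0 with at least 5 cells, 3 with the stricter filter, 0 with centred mice, 33 with saturation (18 higher, 15 lower), 18 with all 21 samples, 0 in the exact test, 3 with cells of the other compartment left out and 0 to 6 with 1 mouse left out. Over 1281 alternative values of measures not called in the 5 most abundant types, 13 passed the threshold in the direction first found, and 124 had the other sign, 0 of these past the threshold.

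With the letters as a replicate block, which the labels do not define as pairs, 3 pairs gave 0 calls for UMIs and 0 for percent columns, a quiescent difference of -54.2 points (exact p = 0.25, the smallest possible) and an adjusted limma p of 0.0821 for inflammatory monocytes, while neutrophils and patrolling monocytes stayed called.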
